A study of Homo sapiens with 6 samples.

Results

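Retained-intron transcripts are annotated transcripts of a gene in which sequence that other transcripts splice out stays in the RNA. They were examined in K562 cells with and without induction of Flag-PCBP1. Members were transcripts of GENCODE type retained_intron in protein-coding genes with a mean gene level of at least 5 TPM (an abundance made comparable between transcripts of different length and between libraries) and a mean of at least 20 estimated reads per transcript over 6 libraries. These limits left 13033 transcripts in 4528 genes, of 33156 annotated retained-intron transcripts in 9647 protein-coding genes and of 252045 transcripts in all. Of the 8246 protein-coding genes at 5 TPM or more, 54.9% held at least 1 member. The members were thus chosen by mean gene TPM and mean transcript reads over all 6 libraries, with no difference between the groups, so the Dox contrast was tested. A mean of 20 reads was reached through 1 group alone by 1097 members, of which 471 were under it in −Dox and 626 in +Dox. At the read limit, transcripts of VPS35 (20.002 reads) and MED13L (20.011) lay just inside, and transcripts of METTL22 (19.999) and PNPLA2 (19.993) just outside. At the TPM limit, GIT1 (5.0005 TPM) and PLXND1 (5.0137) lay just inside, and PML (4.9957) and BRMS1L (4.9882) just outside.

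K562 is an erythroid leukemia cell line. A clone of it (K562flox) had received lox sites at a safe-harbour locus by Cas9 editing, and a cassette with Flag-tagged PCBP1 behind a tet-inducible promoter was then exchanged into that site. PolyA RNA was sequenced from 3 control libraries of this line without doxycycline (−Dox) and 3 with it (+Dox), and the comparison asks how the transcriptome responds to more PCBP1. The cassette is present in both groups. Effects of Dox itself and of Flag-PCBP1 cannot be told apart. The dose and time of Dox for these libraries are not given in the sources used here. The labels call the libraries replicates and do not say whether they came from separate cultures, so p-values measure the spread between these libraries, which may be technical. Summed estimated counts were 84177316, 80104627 and 74766040 in −Dox replicates 1, 2 and 3, and 70905656, 82263502 and 82449808 in +Dox replicates 1, 2 and 3. PCBP1 was at 156, 158 and 163 TPM in −Dox and at 596, 582 and 600 TPM in +Dox, with no overlap (log2 fold change 1.94 ± 0.06 (SE, n = 3 and 3), edgeR quasi-likelihood adjusted p = 5.22e-10). All 10 erythroid markers were expressed, from TAL1 at 12.1 to 17.3 TPM to HBG2 at 9616 to 10130 TPM, with GATA1 at 121 to 132 TPM. Of 7 markers of other cell types, LYZ alone was above 5 TPM. MS4A1, a B cell marker, was listed at 0 in all 6 libraries, CD3E of T cells was at or under 0.0692 TPM and ALB of liver at or under 0.163 TPM. In bulk RNA, fewer cells of a kind and less RNA per cell cannot be told apart.

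An intron is removed once the spliceosome has paired its 5′ splice site with the branch point and the 3′ splice site, where a tract of pyrimidines before the closing AG is read by U2AF and by competing proteins. Poly(C)-binding proteins such as PCBP1 bind runs of C, including runs in such tracts. Transcripts that keep an intron often stay in the nucleus or meet nonsense-mediated decay, and genes for splicing factors are known for them. In erythroid differentiation, retention changes for transcripts of iron, heme and splicing genes.

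The 3′ ends of 8 kept introns are shown here as examples from genes that the results name, chosen by gene and not by C content. Each is the last 30 bases of a coding-region intron of GRCh38 (hg38), 5′ to 3′ on the gene's strand, and ends in the AG of the splice site. Runs of at least 3 C are in capitals. VMP1 and STAT5A had members that were lower in +Dox, CENPT had a lower share in +Dox, TFR2 and UROD are iron and heme genes, HNRNPH1 encodes an RNA-binding protein, and DDX39B and CCNL1 are known for kept introns.
CENPT: tccggcctgtattctctCCCCttcactcag
VMP1: cattgcattgttctgcatttatttctacag
STAT5A: ctCCCtctgacatCCCCCtgtctttaccag
TFR2: tccgCCCCagcgtccaCCCtgtcctggcag
UROD: acctagcaacctgtctcctgtttcctacag
HNRNPH1: taaccttgtatgccttttctctcatttcag
DDX39B: CCCgttCCCCaCCCCCttcctCCCCCCCag
CCNL1: tgaattgagtttttttCCCttgtccttcag

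The CENPT intron is number 11 of 15 (chr16:67830089-67830389, minus strand, 301 bases), the VMP1 intron is 11 of 11 (chr17:59838398-59839767, plus strand, 1370 bases) and the STAT5A intron is 18 of 18 (chr17:42309485-42310506, plus strand, 1022 bases). The TFR2 intron is 15 of 17 (chr7:100627492-100627576, minus strand, 85 bases), the UROD intron 3 of 9 (chr1:45013216-45013291, plus strand, 76 bases) and the HNRNPH1 intron 10 of 13 (chr5:179616959-179617050, minus strand, 92 bases). The DDX39B intron is 6 of 10 (chr6:31532912-31535366, minus strand, 2455 bases) and the CCNL1 intron 4 of 10 (chr3:157152242-157153035, minus strand, 794 bases). The DDX39B end had 21 C among its 30 bases, TFR2 had 15, and VMP1 and CCNL1 had 6 each. Intron numbers follow the canonical GENCODE transcript of the gene.

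The type retained_intron says less about intron sequence than its name does. Members were compared with the exons of protein-coding transcripts of their own gene, and bases outside those exons were counted as intronic. This was done for 13029 members; for the other 4 the deposited length was not that of the annotated model. Of these, 7150 (54.9%) spanned no annotated intron from end to end, 3149 spanned 1 and 2730 spanned at least 2. The median member had 436 intronic bases, or 37.0% of its length (quartiles 19.8% and 56.8%), and 90 members had none. Partial introns, alternative first or last exons and extended exons are also placed in this type.

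The most abundant members held little intron sequence. RPL14-208, of a large-subunit ribosomal protein gene, was the most abundant member at 3422 TPM and had 13 intronic bases (1.64%) and no whole intron. RPS23-203 was at 2590 TPM with 99 intronic bases (17.2%), and 40.3% of its length is also covered by exons of another gene on the opposite strand. RPS28-201 was at 1791 TPM with 22 intronic bases (6.59%). EEF1A1-207, of the translation elongation factor, was at 730 TPM with 83 intronic bases (4.55%) and spans 1 whole intron. The 10 most abundant members held 26.6% of all member TPM. The 1416 members under 10% intronic held 30.8% of it, and the 5879 members that span a whole intron held 31.2%; 638 members belong to both sets. DDX39B-215, of an RNA helicase of splicing and export, had the opposite form, with 2 whole introns, 60.3% intronic bases and 39.4 TPM.

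**Figure D1:**
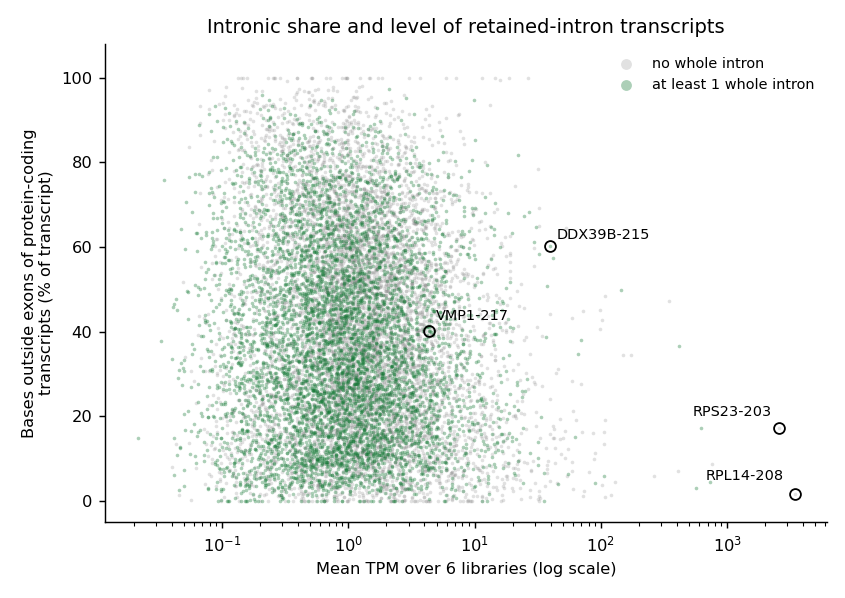
Intronic share of bases (y axis, % of the transcript) against mean TPM over 6 libraries (x axis, log scale) for 13029 retained-intron transcripts, each a point, green where at least 1 annotated intron is kept whole. The points furthest right, RPL14-208 at 3422 TPM and RPS23-203 at 2590 TPM, lie under 20% intronic.

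The retained-intron share of a gene, the percent of its TPM on members, ranged widely between genes. The median over 4528 genes was 11.4%, with quartiles of 4.01% and 25.2%. The share was under 5% in 1322 genes and above 50% in 265 genes. Between libraries of 1 group, the share had a median SD of 1.86 percentage points. Relative to the share, the SD was 32.5% in the 1140 genes with 20 to 100 member reads, 15.2% in the 2589 genes with 100 to 1000, and 7.87% in the 799 genes with over 1000. In percentage points the median SD was 1.39, 2.04 and 1.96 in these 3 sets, so more reads went with a smaller relative SD and not with a smaller SD in points.

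Several of the highest shares were on members with little intron sequence or with exons of another gene. SLX1A, a nuclease subunit gene with a near-identical copy, had all of its TPM on members in every library, and its share could not be tested. A1BG, which encodes a plasma glycoprotein, had shares of 98.8% to 99.6%, on a member of which 96.4% is also covered by exons of another gene on the same strand. RPL14 had 95.9% to 96.9%, DES, the muscle intermediate filament gene, 92.2% to 98.4%, and SPACA6, a sperm protein gene, 85.8% to 98.6%. OAZ1, the inhibitor of polyamine synthesis, had 88.7% to 91.3%, RPS28 had 78.5% to 83.2% and RPS23 had 53.7% to 61.8%. Of the other genes with the most member TPM, RPL4 had 36.6% to 43.2%, RPL13 had 23.1% to 26.3%, RPL11 had 12% to 18.8% and EEF1A1 had 8.50% to 9.66%. The groups overlapped in all of these genes other than RPL13, at 23.1% to 24.1% in −Dox and 24.4% to 26.3% in +Dox (adjusted p = 0.798 by limma). Ribosomal protein genes have many processed pseudogenes, so these values are uncertain.

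Genes for splicing factors, and genes known for introns kept in nuclear polyA RNA, had median shares above the 11.4% of all genes. Of 50 genes for splicing factors and their kinases, 45 had members, 188 transcripts in all, with a median share of 24.1%. TRA2B, an activator of exon inclusion, had shares of 47.4% to 51.0%, and SRRM2, a scaffold of nuclear speckles, 57.4% to 60.7%. SRSF3, an SR protein, had 21.5% to 34.4%, and RBM39, a U2AF-like factor, 21.1% to 26.0%. Among the 23 genes known for introns kept in nuclear polyA RNA, 21 had members, with a median share of 28.5%. CCNL1, a cyclin found with splicing factors, had 74.9% to 80.5%. DDX39B had 25.3% to 30.2%. The groups overlapped in each of these 6 genes. DDX5, a helicase, was at 28.6% to 30.6% in −Dox and 26.9% to 27.3% in +Dox, and SRSF5 at 23.9% to 25% and 20.8% to 22.5%, with no overlap in either gene (adjusted p = 0.697 and 0.72 by limma). In neither list did a gene have an unadjusted p under 0.05 for its share.

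Few retained-intron transcripts passed the test for a change in level, and the number depended on the tool. At transcript level (edgeR on estimated counts, 86316 transcripts tested), 0 members were called higher and 5 lower in +Dox. A call needed a log2 fold change beyond 1 in either direction and an adjusted p under 0.05. Over all transcripts tested, 0.0498% were called higher and 0.0359% lower, so the 5 members (0.0384%) were near the background. Of the 5, 2 had 20 reads in both groups. With a minimum of 10 counts in every library, calls came to 4 higher and 10 lower members (0.0367% and 0.0916% of 10912, beside 0.136% and 0.124% of 57154 transcripts), and these include 2 of the 5. With no limit on the fold change, 0 members passed higher and 8 lower, beside 0.129% and 0.0753% of all transcripts. At an unadjusted p under 0.05, 286 members were higher and 646 lower (2.19% and 4.96%, beside 5.28% and 4.75% of all transcripts). DESeq2 on the same counts called 78 members higher and 135 lower (background 1.12% and 1.06%), or 189 and 407 with no limit on the fold change (background 3.69% and 3.13%). With any 1 library left out, edgeR called 0 members. The median log2 fold change was −0.09 over members, −0.01 over all transcripts tested and −0.01 over their host genes.

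Of the 5 members called, those with reads in both groups were 2 transcripts of VMP1, which encodes an endoplasmic reticulum protein needed for autophagosomes. VMP1-205 (ENST00000587470.1) was at 39.4, 35.6 and 37.9 TPM in −Dox and at 17.0, 20.8 and 15.5 TPM in +Dox. All 3 +Dox libraries lay below all 3 −Dox libraries (log2 fold change −1.04 ± 0.09 (SE, n = 3 and 3), edgeR quasi-likelihood adjusted p = 0.0372). VMP1-217 (ENST00000592790.1, chr17:59837931-59842255, 4325 bases, 1 exon) keeps the VMP1 intron printed above and was at 8.19, 5.43 and 6.51 TPM in −Dox and 2.02, 2.14 and 1.92 TPM in +Dox. The groups again did not overlap, and the log2 fold change was −1.65 ± 0.15 (SE, n = 3 and 3), and edgeR gave an adjusted p of 0.0372. Without any 1 library, the adjusted p of VMP1-205 was 0.124 to 0.168 and that of VMP1-217 0.102 to 0.168. The deposited VMP1-205 is 995 bases long and the annotated model 2231, so its intronic bases were not counted.

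The exon of VMP1-217 also contains the gene of miR-21, a microRNA known to be abundant in many cancers (MIR21 hairpin, chr17:59841266-59841337, plus strand). Its mature 5p arm is shown because the lowered transcript carries it. The sequence is from RefSeq (GRCh38.p14), 5′ to 3′, with the seed, bases 2 to 8, in capitals.
hsa-miR-21-5p: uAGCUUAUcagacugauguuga

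PolyA libraries do not measure the mature microRNA. In all, 162 members held a gene of a small RNA inside an exon, 76 of them a microRNA gene and 91 a snoRNA gene. Of the 76, 48 had a negative log2 fold change, and their median was −0.06, close to the −0.09 of all members.

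The other transcripts of VMP1 gave values in both directions. The summed TPM of members fell from 44.4 ± 3.30 to 19.8 ± 2.86 (SD, n = 3 and 3), while the rest of the gene was at 45.6 ± 1.81 and 45.2 ± 4.28 TPM. Within that rest, the main protein-coding transcript VMP1-201 was at 30.9, 30.2 and 32.3 TPM in −Dox and 21.4, 22.6 and 22.1 TPM in +Dox (log2 fold change −0.43 ± 0.05 (SE), adjusted p = 0.0485 by edgeR). VMP1-216, a transcript marked for nonsense-mediated decay, was at 0.419, 1.69 and 0 TPM in −Dox and 8.33, 3.80 and 8.66 TPM in +Dox (adjusted p = 0.519). At gene level VMP1 fell by 0.61 on the log2 scale (adjusted p = 2.77e-06 by edgeR). The share of VMP1 on members was 51.9%, 46.3% and 49.7% in −Dox and 27.7%, 35.8% and 28% in +Dox, and limma gave an adjusted p of 0.443. Over members that span a whole intron, which leaves out VMP1-205 (27.7 of 32.1 member TPM) as a transcript with no structure assigned, the difference was −4.32 points in place of −18.77, and the change in the log2 ratio of members to the rest was −1.26 in place of −1.15.

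A further 3 members passed the adjusted p with smaller changes, each in a host gene that fell too; they were named after their values were seen. MYEOV-205 (ENST00000535653.1), of a gene overexpressed in some myelomas, was at 14.4, 14.8 and 15.9 TPM in −Dox and 7.64, 8.39 and 7.10 TPM in +Dox (log2 fold change −0.90 ± 0.07 (SE), adjusted p = 0.0321 by edgeR). GABRE-211 (ENST00000491339.1), of a subunit of the GABA-A receptor, was at 7.21, 6.40 and 6.97 TPM in −Dox and 3.62, 3.69 and 3.27 TPM in +Dox (log2 fold change −0.90 ± 0.08 (SE), adjusted p = 0.0383 by edgeR). STAT5A-206 (ENST00000587646.2), of a signal transducer of cytokine receptors, was at 10.6, 8.33 and 9.29 TPM in −Dox and 5.35, 5.23 and 4.95 TPM in +Dox (log2 fold change −0.80 ± 0.08 (SE), adjusted p = 0.0467 by edgeR). In all 3 the groups did not overlap. Without any 1 library their adjusted p was 0.102 to 0.181 by edgeR. The host genes fell by 0.75, 0.52 and 0.49 on the log2 scale (adjusted p = 1.98e-06, 9.12e-05 and 1.59e-05 by edgeR), and the retained-intron shares of the genes had adjusted p = 0.686, 0.687 and 0.686 by limma. STAT5A-206 keeps the STAT5A intron printed above, GABRE-211 is 89.5% intronic with no whole intron, and MYEOV-205 has no base outside the exons of other coding transcripts.

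**Figure D2:**
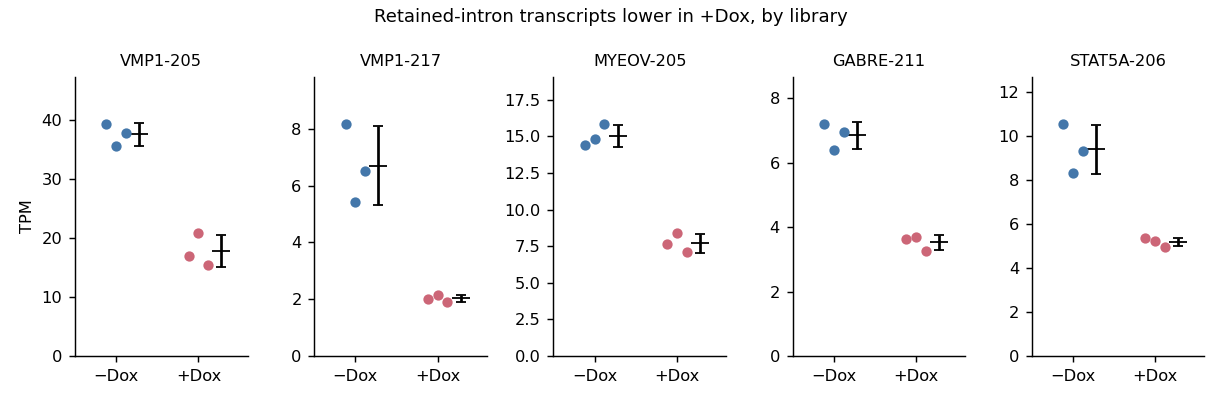
TPM (y axis, linear from 0) of 5 retained-intron transcripts in −Dox (blue) and +Dox (red); each point is a library, and the black bar beside the points is the mean ± SD of 3 libraries. In each of the 5 panels all +Dox points lie below all −Dox points, as for VMP1-217 with 5.43 to 8.19 TPM against 1.92 to 2.14 TPM.

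The remaining 3 members called were listed at 0 in every +Dox library and were also named after their values were seen. They are among the members that reached 20 reads through −Dox alone, so their passing the read limit and their lower level are not independent, and they support nothing here. NFATC3-208, of a calcium-regulated transcription factor, was at 0.677, 0.749 and 0.917 TPM in −Dox. EDEM3-213, of a mannosidase-like protein of endoplasmic reticulum quality control, was at 0.308, 0.396 and 0.368 TPM. SLC39A7-213, of a zinc transporter, was at 0.847, 1.01 and 1.34 TPM. With 3 counts over the +Dox group as the floor, the levels were at least 246-fold, 194-fold and 236-fold lower in +Dox. Their host genes differed by −0.24, 0.12 and −0.11 on the log2 scale. A listed 0 can be a failed estimate. Without any 1 library the adjusted p of the 3 was 0.118 to 0.185 by edgeR. Over all members, 68 were listed at 0 in every −Dox library and 62 in every +Dox library (0.522% and 0.476%, beside 1.55% and 1.49% of all transcripts tested).

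Within genes, 0 of 4527 retained-intron shares were called by limma on log2 ratios, where a call needed more than 5 percentage points between the groups and an adjusted p under 0.05. Over the 18238 shares of all transcript classes, 0.011% were called higher and 0% lower. With no limit on the difference, NFATC3, whose member reached the read limit through −Dox alone, was the gene that passed, with 2.39%, 2.63% and 3.46% in −Dox and 0% in each +Dox library (adjusted p = 0.0178 by limma), beside 0.0274% of all classes higher and 0.0219% lower. With a pseudocount of 1 TPM in place of 0.1, NFATC3 had an adjusted p of 0.431. With the pseudocount of 0.1 and any 1 library left out, it had 0.061 to 0.11. The share differed by more than 5 points upward in 124 genes and downward in 283 (background 6.48% and 5.52%). Unadjusted p-values under 0.05 were found for 56 higher and 216 lower shares (1.24% and 4.77%, beside 3.95% and 3.61% of all classes). A test of transcript usage on counts (diffSpliceDGE in edgeR) gave 1 gene higher and 3 lower at an adjusted p under 0.05, beside 0.0877% and 0.0658% of all classes. They were HNRNPC (higher, adjusted p = 0.0129) and VMP1, NFATC3 and HSP90B1 (lower); HSP90B1, a chaperone gene, was named after its values were seen. With 3 libraries a group, an exact permutation test of a single value cannot go below p = 0.1.

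Among genes with a difference above 5 points, the lower shares with the smallest p by limma were those of CENPT and VMP1, and neither passed the adjustment in that test. CENPT, a subunit of the inner kinetochore, had shares of 79.9%, 76.2% and 75.4% in −Dox and 57.5%, 57.7% and 58.5% in +Dox (adjusted p = 0.144 by limma). The groups were 19.3 percentage points apart without overlap. The members of CENPT were at 21.3 ± 0.74 TPM in −Dox and 19.7 ± 0.94 TPM in +Dox (SD, n = 3 and 3), and the other transcripts at 6.34 ± 1.01 and 14.3 ± 0.92 TPM. The lower share of CENPT thus went with more TPM on its other transcripts, and that of VMP1 with less TPM on its members. The CENPT intron printed above lies in 5 members that held 18.1 TPM together. Its most abundant member, CENPT-218, was at 11.4, 11.9 and 13.2 TPM in −Dox and at 10.3, 11.5 and 11.1 TPM in +Dox (adjusted p = 0.847 by edgeR), and 11.7% of it is also covered by exons of another gene on the opposite strand.

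ASNS, asparagine synthetase, was also among the lower shares with the smallest p in that set of genes. Its share was 17.8%, 10.3% and 12.9% in −Dox and 4.75%, 3.95% and 6.98% in +Dox (adjusted p = 0.482 by limma). The groups did not overlap. The difference of −8.44 points was −3.28 by estimated counts, and the change in the log2 ratio of members to the rest was −1.50 by TPM and −1.41 by counts. Its most abundant member, ASNS-216, is covered over 71.7% of its length by exons of another gene on the same strand.

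Higher shares were fewer, and none passed by limma. UBR3, a ubiquitin ligase gene, was first by p among those above 5 points, with 13.6%, 12.8% and 9.62% in −Dox and 22.5%, 24.2% and 25.5% in +Dox (adjusted p = 0.443 by limma). TASOR, of the HUSH silencing complex, was at 1.15%, 2.12% and 0.548% and at 6.17%, 17.1% and 7.37% (adjusted p = 0.467 by limma). HNRNPC, which binds runs of U and competes with U2AF, was at 7.79%, 9.23% and 9.11% and at 15.4%, 13.1% and 13.2% (adjusted p = 0.482 by limma). NDUFAF1, an assembly factor of complex I, was at 7.90%, 7.48% and 8.51% and at 11.6%, 13.9% and 16.3% (adjusted p = 0.487 by limma). In all 4 genes every +Dox value was above every −Dox value, which for TASOR is not independent of the read limit. By estimated counts in place of TPM, the difference was 1.41 points for UBR3 in place of 12.05, 0.45 for TASOR in place of 8.95, 1.62 for HNRNPC in place of 5.21 and 6.66 for NDUFAF1 in place of 5.97. The quantity tested, the change in the log2 ratio of members to the rest of the gene, moved less, at 1.09 in place of 1.18 for UBR3, 1.70 in place of 2.65 for TASOR, 0.77 in place of 0.76 for HNRNPC and 0.91 in place of 0.87 for NDUFAF1. The TASOR difference was 5.50 points without +Dox replicate 2, and that of HNRNPC 0.02 points over members that span a whole intron. None of the most abundant members of these 4 genes spans a whole intron, and HNRNPC-206, at 88.9 TPM, is 9.93% intronic.

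**Figure D3:**
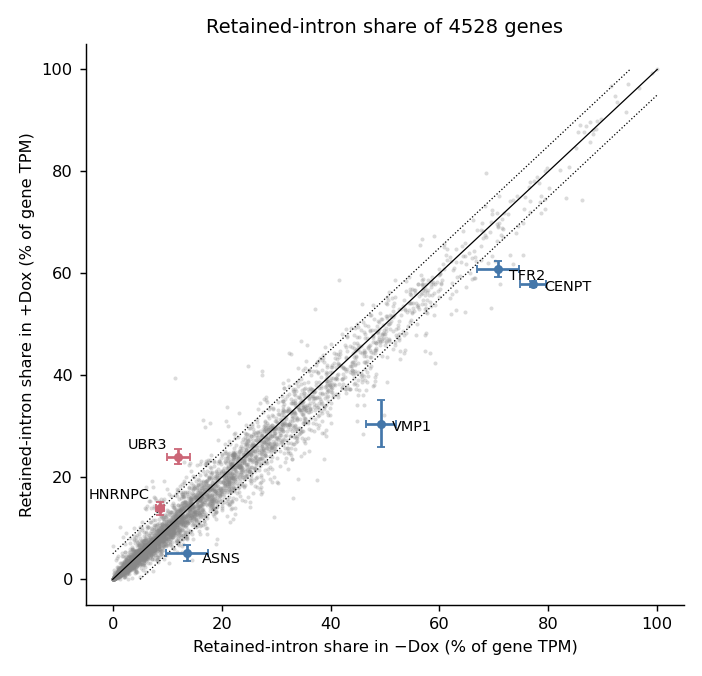
Retained-intron share (% of gene TPM) in +Dox (y axis) against −Dox (x axis), each point the mean of 3 libraries for 1 of 4528 genes; the solid line marks equal shares and the dotted lines a difference of 5 percentage points. Named genes carry ± SD bars (n = 3 and 3); CENPT (77.2% to 57.9%) and VMP1 (49.3% to 30.5%) lie furthest below the line among those named, and UBR3 (12% to 24.1%) furthest above.

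More shares were lower than higher in +Dox, and 2 libraries stood apart in this measure. The share was lower in +Dox in 2790 of 4527 genes (61.6%), beside 50.3% of the shares of all classes, with a median difference of −0.27 percentage points. For the protein-coding class, over 7548 genes, 41.0% of shares were lower, with a median difference of 0.34 percentage points. For transcripts marked for nonsense-mediated decay, over 3193 genes, 51.3% were lower (median −0.019 points). For transcripts of type protein_coding_CDS_not_defined, over 2921 genes, 55.2% were lower (median −0.117 points). Groups that did not overlap were counted in 161 genes with higher and 521 with lower shares (3.56% and 11.5%, beside 6.88% and 6.95% of all classes). By TPM, 511 members were higher and 1649 lower without overlap (3.92% and 12.7%, beside 7.02% and 10.7% of all transcripts).

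Each library was then described by the percent of genes whose share in it lay under the gene's own median of 6 libraries. It was 33.8%, 49.6% and 48.5% in −Dox replicates 1, 2 and 3, and 54.2%, 48.4% and 65.1% in +Dox replicates 1, 2 and 3. Replicate 1 of −Dox thus stood apart on 1 side and replicate 3 of +Dox on the other, and the other 4 libraries lay between 48.4% and 54.2%. Without these 2 libraries the share was lower in 2311 of 4527 genes (51.0%, beside 49.7% of all classes), and 53.0% of members were lower (beside 50.4% of all transcripts), in place of 64.2% (beside 55.8%) with all 6 libraries. Of groups of 2 that did not overlap, 17.7% of shares were then higher and 20.2% lower (beside 18.9% and 18.3%). This setting was chosen after seeing the data. The 2 libraries were picked on the measure itself, as the −Dox library with the highest shares and the +Dox library with the lowest, so the difference had to shrink.

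Summed over members, the difference was small and of the same sign. Members held 4.94%, 4.85% and 4.85% of the TPM of the 8246 genes in −Dox replicates 1, 2 and 3, and 4.65%, 4.67% and 4.41% in +Dox. The groups did not overlap, and the means differed by −0.30 percentage points, or −0.19 without −Dox replicate 1 and +Dox replicate 3, where the groups did not overlap either. By estimated counts the groups overlapped, at 5.08% to 5.31% and 4.68% to 5.11%. Members that span a whole intron held 1.49% to 1.58% in −Dox and 1.36% to 1.47% in +Dox, and members at least 50% intronic 0.792% to 0.907% and 0.716% to 0.835%, with overlap in the last pair.

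The nuclear RNAs MALAT1 and NEAT1 fell as well. MALAT1, a noncoding RNA of nuclear speckles, was at 154, 141 and 143 TPM in −Dox and 121, 99.2 and 93.7 TPM in +Dox (log2 fold change −0.38 ± 0.07 (SE), adjusted p = 0.00297 by edgeR). NEAT1, the scaffold of paraspeckles, was at 97.2, 80.2 and 90.9 TPM and at 63.2, 65.3 and 54.0 TPM (log2 fold change −0.44 ± 0.07 (SE), adjusted p = 0.000945 by edgeR). KCNQ1OT1, the third of these markers, was at 0.913 to 1.19 TPM and 0.846 to 1.02 TPM (adjusted p = 0.645). Genes of the mitochondrial genome held 8.79% to 9.39% and 9.01% to 9.32% of counts. Transcripts marked for nonsense-mediated decay held 1.984% to 2.026% of TPM in −Dox and 1.94% to 1.955% in +Dox, without overlap. Protein-coding transcripts held 82.954% to 83.581% and 83.567% to 84.456%, lowest in −Dox replicate 1 and highest in +Dox replicate 3. Transcripts of type lncRNA overlapped, at 2.982% to 3.3% and 3.062% to 3.226%. The part of nuclear RNA in the lower retained-intron levels was not tested. LYZ, a marker of myeloid cells, was at 94.1, 109 and 131 TPM in −Dox and 73.1, 77.2 and 85.4 TPM in +Dox (adjusted p = 0.00837 by edgeR), and its part was not tested either.

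**Figure D4:**
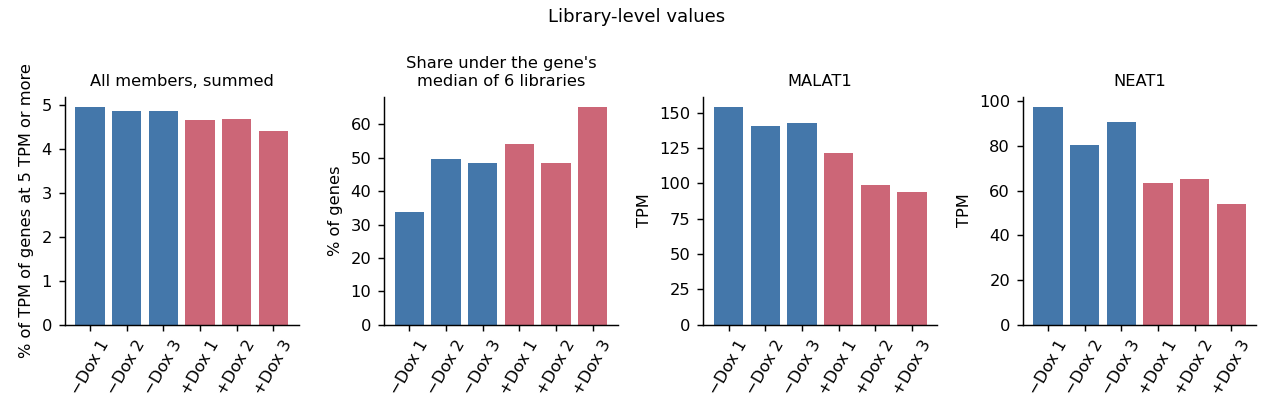
Values of each library (blue −Dox, red +Dox; every y axis starts at 0): the percent of TPM on members among 8246 genes, the percent of genes with a share under their own median, and the TPM of MALAT1 and NEAT1. The second panel shows −Dox 1 at 33.8% and +Dox 3 at 65.1%, with the other 4 libraries at 48.4% to 54.2%.

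The levels of the host genes were tested as well. Of 4528 host genes, 6 were called higher and 5 lower by edgeR (0.133% and 0.11%, beside 0.737% and 0.727% of 21045 genes). With no limit on the fold change, 567 were higher and 659 lower (12.5% and 14.6%, beside 8.16% and 7.68%). The called genes were named after their values were seen. DDIT4, an inhibitor of mTORC1, fell by 2.04 on the log2 scale and had a share of 22% ± 3.72 in −Dox and 11.8% ± 2.88 in +Dox (SD, n = 3 and 3; adjusted p = 0.581 by limma). CALB1, TAFA2, LCP2 and SLC2A3 were the other 4 that fell. FAXDC2 rose by 2.05 and RHCE by 1.97 on the log2 scale, and RHD, PPOX and FIG4 were also among those that rose. RHD and RHCE encode the Rh blood groups and are near-identical copies, so their values are uncertain. Over the 6008 members with at least 100 reads, the log2 fold changes of member and host gene had a Pearson r of 0.32, a description across transcripts, which share libraries and reads with their host.

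Heme and iron genes were described by the levels of the host genes and by their shares. Of 28 genes, 16 had members, with a median share of 15.8%; 11 host genes were higher and 3 lower at an adjusted p under 0.05 by edgeR, beside 8.16% and 7.68% of all genes and 12.5% and 14.6% of all host genes. Shares had an unadjusted p under 0.05 in 0 genes higher and 3 lower, beside 1.24% and 4.77% of all genes with members and 3.95% and 3.61% of all classes, and none passed the adjustment. By level, 13 of the 70 members were higher and 1 lower at an unadjusted p under 0.05 by edgeR, beside 2.19% and 4.96% of all members and 5.28% and 4.75% of all transcripts, and 0 passed the adjustment (11 higher and 1 lower by DESeq2, beside 3.69% and 3.13% of all transcripts). The median log2 fold change of the 70 was 0.17, beside −0.09 over all members. TFR2, the iron-sensing receptor, had shares of 74.8%, 70.2% and 67.1% in −Dox and 60.5%, 59.5% and 62.7% in +Dox (adjusted p = 0.624 by limma). Its members were at 33.1 ± 3.87 and 32.9 ± 0.94 TPM and its other transcripts at 13.6 ± 1.65 and 21.2 ± 2.02 TPM (SD, n = 3 and 3), which is the form seen in CENPT. The other lower shares with an unadjusted p under 0.05 were those of UROS, of heme synthesis, at 3.04% and 1.97%, and BLVRB, of heme breakdown, at 0.629% and 0.354%, both named after their values were seen.

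UROD, TFRC and SLC25A37 were among the genes of that list with the most member TPM. UROD, a decarboxylase of heme synthesis, had shares of 18.1% to 21.3% with overlap. SLC25A37, the mitochondrial iron importer, was at 54.8% to 56.1% in −Dox and 51.7% to 53.1% in +Dox without overlap (adjusted p = 0.775 by limma). TFRC, the transferrin receptor, had 14.3% to 16.8% and 16.4% to 21.9% with overlap.

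Red cell genes had a median share below that of all genes, and most of the host genes that passed the test were higher. Of 26 genes, 13 had members, with a median share of 7.93%. Shares were higher in 9 genes and lower in 4, beside 38.4% and 61.6% of all genes with members. The median log2 fold change of the 27 members was 0.67, beside −0.09 over all members. At an adjusted p under 0.05 by edgeR, 7 host genes were higher and 1 lower. Over all genes these were 8.16% and 7.68%, and over all host genes 12.5% and 14.6%. GYPB, a glycophorin gene with near-identical relatives, had shares of 6.28% to 9.63% with overlap. HBG1, of fetal globin, had 0.227% to 0.309%, and LMO2, an erythroid transcription factor, 7.72% to 13.3%, both with overlap. Only HBA2 had an unadjusted p under 0.05 for its share, which was 0.822%, 0.966% and 0.865% in −Dox and 0%, 0% and 0.66% in +Dox (adjusted p = 0.63 by limma), with 2 of the +Dox libraries listed at 0; it has a near-identical copy and was named after its values were seen.

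Genes for hnRNP and poly(C)-binding proteins differed widely in share. Of 18, 10 had members, with a median share of 8.83%, beside 11.4% over all genes. Shares were higher in 4 genes and lower in 6, beside 38.4% and 61.6% of all genes with members. HNRNPH1, which binds G-rich sequence, was at 54.7%, 54.5% and 53.4% in −Dox and 49.0%, 49.3% and 50.9% in +Dox, without overlap (adjusted p = 0.663 by limma). HNRNPA1 had 6.83% to 7.86%, HNRNPA2B1 had 7.76% to 13.2% and HNRNPU had 10.6% to 13.6%, all with overlap. Besides HNRNPC, given above, HNRNPD had an unadjusted p under 0.05 for its share, which was 1.09% and 0.828% (adjusted p = 0.659 by limma); it was named after its values were seen. Of the 6 genes whose exons the study tested by RT-PCR, 4 had members, and the groups overlapped in GOLGA2 (30.6% to 42.0%), NUMB (15.2% to 21.7%) and CARM1 (3.60% to 7.70%). TMEM222 was at 10.3% to 14.1% in −Dox and 14.5% to 17.4% in +Dox without overlap (adjusted p = 0.675 by limma).

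Introns that members keep whole were shorter, and had more C before the 3′ splice site, than other introns of genes with members. Of the introns of at least 60 bases in protein-coding transcripts of member genes, 8584 in 2584 genes were spanned by a member and 76986 in 4502 genes were not, so the sets do not hold the same genes. Kept status was read from the annotated models of members, not from reads within introns. The other introns can include some spanned by retained-intron transcripts under the read limit. The median length was 335 bases for kept and 1693 for other introns, and the median GC content 52.8% and 43.7%. In the 50 bases that end 3 bases before the intron end, the median C content was 28% and 22%. The motif CCC, searched on the gene's strand only, was in the last 30 bases of 52.1% of kept and 37.5% of other introns; of the 8 ends printed above, 5 hold it. Starts of the minor spliceosome type (GTATCC or ATATCC) were found in 77 kept introns (0.897%) and 367 others (0.477%), and GT-AG ends in 97.8% and 98.4%. A match in these windows is a description and does not mark a bound site.

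Part of these differences lay between genes and part within them. In 2367 genes with kept and other introns in the canonical transcript and at least 3 introns, the median kept intron was the shorter in 1886 (79.7%), had more GC in 1306 (55.2%) and more C before its end in 1220 (51.5%) and less in 960 (40.6%). Kept introns were the first of their gene in 4.88% and the last in 8.33%, beside 7.74% and 7.35% of other introns, and lay between coding exons in 98.4%, beside 96.2%. Introns of a gene are not replicates, and no test was made.

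**Figure D5:**
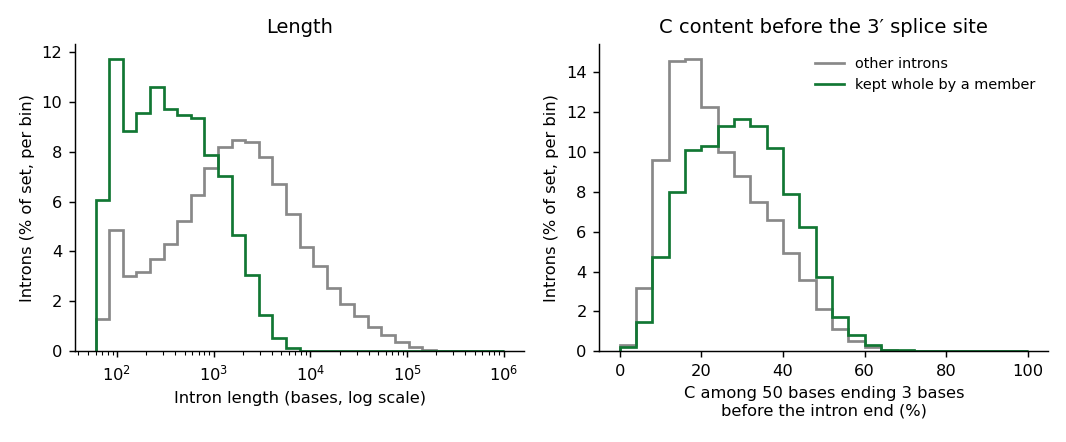
Distribution of intron length (left, bases, log scale) and of C content in the 50 bases that end 3 bases before the intron end (right, %) for 8584 introns kept whole by a member (green) and 76986 other introns of genes with members (grey); the y axis is the percent of each set per bin. Kept introns lie to the left in length (medians 335 and 1693 bases) and to the right in C content (medians 28% and 22%).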

How the data were processed

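PolyA RNA of 6 K562 libraries (3 −Dox, 3 +Dox) was sequenced in pairs of 150 cycles. The authors quantified transcripts with Salmon 1.10.2 (per the submitters' processing notes) on hg38, and the deposited values, 1 pair per transcript in each library with no pooling, are an unscaled estimated count and TPM, which Salmon scales for effective length and to the same total in each library. The index and the strand setting are not given in the sources used here, so genes that overlap and near-identical copies are uncertain.

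Identifiers were matched to GENCODE 44 on GRCh38: 251142 with their version, 251612 without regard to it, and 433 not at all (0.125% to 0.138% of counts). Introns were read from the hg38 genome. Members and lists were chosen with earlier results of these data known.

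Rounded estimated counts entered edgeR 4.0.16 in R 4.3.3 (quasi-likelihood fit and test, TMM factors 0.974 to 1.03) for each transcript or gene whose mean exceeded 10. Shares were tested with limma 3.58.1 (eBayes with the log2 mean count of the class as a trend) on log2((class TPM + 0.1)/(rest TPM + 0.1)), over all transcript classes of protein-coding genes at 5 TPM or more. All tests were two-sided with Benjamini-Hochberg adjustment over all features tested. Libraries of a group differed by more than counting noise (chi-square of 15.6 to 18.7 per member, against 1 for counting noise alone), so no file was treated as a second deposit of another; this does not show that the libraries came from separate cultures. The tests of level and share were also run on simulated counts and ratios. These did not include reads shared between overlapping transcripts, so that limit was not tested.

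Genes named are up to 8 members called in each direction with no overlap and at least 1 TPM; up to 8 genes called for share in each direction, or else the first 4 by p with a difference above 5 points; the 8 genes with the most member TPM and the 5 with the highest share; up to 5 genes of each list by member TPM; genes tested by RT-PCR; and PCBP1. A few genes that this rule or a count names are not reported here. Alternatives were DESeq2 1.42.0, RLE factors, other filters and limits, a pseudocount of 1 TPM, all retained-intron transcripts of a gene, estimated counts in place of TPM, diffSpliceDGE, each library left out, and the replicate number as a term. Members that span a whole intron or are at least 50% intronic, members not at 0 in a group, and the removal of 2 libraries were added after seeing the data. Python 3.11.15, pandas 2.3.3, samtools 1.23.1 and matplotlib 3.10.9 were used.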

Additional observations from a re-analysis of the deposited data

How the results depend on the processing

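The count of members called by level depended most on the test and on the libraries. In place of 5 (0 higher, 5 lower), DESeq2 called 213 (78 higher, 135 lower), a minimum of 10 counts in every library gave 14 (4 higher, 10 lower, 2 of them among the 5), no limit on the fold change gave 8, members spanning a whole intron gave 3, and members with 20 reads in both groups, or members not at 0 in a group, gave 2. Each library left out in turn gave 0, and the replicate block gave 0; each such fit has fewer samples or fewer residual degrees of freedom. All 5 were among the 213 of DESeq2. Same-numbered libraries did not deviate together, with correlations of 0.008, −0.06 and −0.003 across genes with a mean count above 10. The numbers thus do not pair the samples. The count of shares called, 0, was 1 with diffSpliceDGE (VMP1, lower), 1 with no limit on the difference (NFATC3, lower), and 0 to 1 with each library left out; the 1 was ZNF510, higher without −Dox replicate 1. It was 0 under the other settings, where limma on 6 libraries gave 176 to 364 unadjusted p under 0.05. The 11 host genes called were 10 to 14 across the alternatives.

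The difference in summed share, −0.30 percentage points, was −0.22 to −0.35 with each library left out, −0.114 for members spanning a whole intron, −0.073 for members at least 50% intronic and −0.19 without −Dox replicate 1 and +Dox replicate 3. The percent of genes with a lower share, 61.6%, was 55.9% to 64.8% with each library left out, 66.5% for members spanning a whole intron and 51.0% without those 2 libraries. The median length of kept introns, 335 bases, was 381.5 with 1 intron per gene and 301 in canonical transcripts. None of the 8 members chosen by level or the 9 genes chosen by share changed sign under the alternatives run. By level, 56 of their repeats lost the adjusted p and 29 kept it; by share, 8 lost it (NFATC3), 2 gained it (VMP1 and HNRNPC with diffSpliceDGE) and 109 stayed on the same side. Reads shared between overlapping transcripts limit all of these values, and a median member had 89.0 reads.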
